A study of Mus musculus with 2 samples.

Results

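The genes described are the 10 mouse genes of MHC class II antigen presentation in this series, H2-Aa, H2-Ab1, H2-Eb1, Cd74, Ciita, H2-DMa, H2-DMb1, H2-DMb2, H2-Oa and H2-Ob, chosen by name from the 31053 genes of the count tables. MHC class II molecules are pairs of an α and a β chain that carry peptides from the endosome to the cell surface, where CD4 T cells read them. H2-Aa and H2-Ab1 encode the chains of I-A, and H2-Eb1 encodes the β chain of I-E, which C57BL/6 mice do not show on the surface because they lack a working I-E α chain. Cd74 encodes the invariant chain, which fills the groove until the endosome, and Ciita encodes the transactivator that switches the whole set on. H2-DMa pairs with H2-DMb1 or H2-DMb2 to form DM, which exchanges peptides in the groove, and H2-Oa with H2-Ob forms DO, which holds DM back. Dendritic cells, B cells and macrophages are the usual presenting cells, mature dendritic cells shut Ciita off, and microglia, the resident macrophages of the brain, make little class II until they are activated.

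The cells came from C57BL/6 mice, kept free of specific pathogens, whose brains had been injected with cells of GL261, a mouse glioma line. One library was made from mice given metformin in their drinking water and 1 from mice given control water, each from the dissected tumour region on day 20. Cells with high surface CD45, a protein of blood-derived cells, had been sorted by flow cytometry before 10x Genomics 3′ sequencing, and the labels name no genetic change in either group. How many mice went into a library, at what dose and with which sort gates is not stated in the sources used here. Every group here is C57BL/6 and tumour-bearing. The series title names tumour hypoxia and γδ T cells, and class II genes are read here in the same cells.

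After filtering, 4569 metformin cells and 5373 control water cells remained, with 44088764 and 46751843 UMIs (counted molecules) and medians of 7926 and 7295 UMIs per cell. The libraries shared 9 cell barcodes. Cells were clustered without class II genes, and the 39 clusters gave 28 named classes and 8 unnamed clusters. The names were rebuilt from marker genes, so each means cells like that type (B cell-like, microglia-like and so on). Microglia usually carry less CD45 than blood-derived cells, yet microglia-like cells numbered 1044 in metformin and 1325 in control water. Values are CPM, the UMIs of a gene scaled to a common total over all UMIs of the class. Intervals are 95% and reflect counting error alone, so spread among mice, sorts and cells lies outside them. With 1 library a group no test was possible, so metformin and control water differ here as libraries. A size rule stood in for a test: a gene was eligible if either library reached 50 CPM with 20 UMIs, and it passed if metformin over control water was 1.5-fold or more up or down and its interval left out 1. The rule was applied to classes of 50 cells or more on both sides.

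In the mm10 build (GRCm38), 8 of the genes lie in 1 block of chromosome 17, from H2-Oa (34092340 to 34095234, plus strand) and H2-DMa (34119541 to 34139101) through H2-DMb2 (34143307 to 34151555) and H2-DMb1 (34153072 to 34160230) to H2-Ob (34238903 to 34254414), H2-Ab1 (34257689 to 34269419), H2-Aa (34282744 to 34287823, minus strand) and H2-Eb1 (34305867 to 34316674). Ciita lies on chromosome 16 (10480059 to 10528418) and Cd74 on chromosome 18 (60803848 to 60812652). The sources used here do not state whether counting used strand, and genes on the opposite strand overlap H2-Oa (BC051537), H2-Eb1 (Gm20513), Ciita (Dexi) and H2-DMa (Brd2). In the classes named below the first of these partners had at most 1.74 CPM and Gm20513 at most 10.0 CPM, while Dexi had 4.74 to 21.8 CPM and Brd2 122 to 197 CPM. H2-DMb1 and H2-DMb2 are close copies, with 69.1% identity over their longest transcripts, where the longest shared run was 221 bases. Over the last 300 bases identity was 65.4%, and the longest shared run was 23 bases. How reads that match both were counted is not stated in the sources used here.

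Class II genes share a promoter layout in which RFX, CREB and NF-Y proteins sit on the W, X and Y boxes and recruit CIITA. The promoters below show how alike and how different the chain and exchange genes are at that place. They are the 150 bases before the RefSeq start in GRCm38.p6, 5′ to 3′ on the gene's own strand. Capitals mark the core of the Y box, TGATTGG, and the end of the X box, ATGATGC.

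H2-Aa, chr17:34287824-34287973, minus strand: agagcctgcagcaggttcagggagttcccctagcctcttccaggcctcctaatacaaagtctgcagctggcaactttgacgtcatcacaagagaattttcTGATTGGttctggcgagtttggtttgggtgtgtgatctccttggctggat
H2-Eb1, chr17:34305717-34305866, plus strand: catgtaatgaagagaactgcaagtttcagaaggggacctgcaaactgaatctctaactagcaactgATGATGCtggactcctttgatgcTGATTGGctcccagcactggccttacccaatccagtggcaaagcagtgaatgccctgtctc
H2-DMb1, chr17:34153041-34153190, plus strand: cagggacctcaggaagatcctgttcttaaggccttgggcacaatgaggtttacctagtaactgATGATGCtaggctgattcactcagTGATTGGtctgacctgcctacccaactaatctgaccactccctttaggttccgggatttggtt
H2-DMb2, chr17:34145099-34145248, plus strand: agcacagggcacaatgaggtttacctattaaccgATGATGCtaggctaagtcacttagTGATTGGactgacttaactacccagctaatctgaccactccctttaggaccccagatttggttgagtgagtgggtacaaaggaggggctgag
H2-Ob, chr17:34238755-34238904, plus strand: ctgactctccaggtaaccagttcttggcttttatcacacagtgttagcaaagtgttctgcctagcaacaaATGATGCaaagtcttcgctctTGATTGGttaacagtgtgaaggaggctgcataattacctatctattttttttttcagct

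Both motifs, picked after these sequences had been read, were searched on both strands of 300-base windows, 250 before and 50 after the start. Of the 10 genes, 7 were searched: H2-Ab1 and Ciita had no entry, and Cd74 was left out of the search. TGATTGG stood in 6 of them, always on the gene's strand and 45 to 92 bases before the start, and in 7.82% of 32851 promoters. ATGATGC stood in H2-Eb1, H2-DMb1, H2-DMb2 and H2-Ob, with 14 to 17 bases between the motifs, and in 2.46% of all promoters, while 0.174% held both. Of these exact letters H2-Oa and H2-Aa held only TGATTGG, and neither H2-DMa window held a match. X boxes spelled otherwise were not searched for, so a window without ATGATGC may still hold one. The letters describe these windows and say nothing of which protein sits there.

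The chains and the invariant chain were highest in dendritic cells and macrophages, lower in B cells, lower again in microglia, and lowest in T cells, in both libraries. Summed over the 4 core genes H2-Aa, H2-Ab1, H2-Eb1 and Cd74, conventional dendritic cells had 53341 CPM in the metformin library and 52314 CPM in the control water library. Macrophages had 49057 CPM in metformin and 49446 CPM in control water, which puts them close behind. B cells had 23310 and 26225 CPM, microglia 9371 and 7604 CPM, and T cells 283 and 238 CPM, metformin first. The intervals of neighbours in this order did not overlap in either library. Over T cells, the core sum was 189-fold and 220-fold higher in conventional dendritic cells, 174-fold and 207-fold in macrophages, 82.5-fold and 110-fold in B cells and 33.2-fold and 31.9-fold in microglia.

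**Figure D1:**
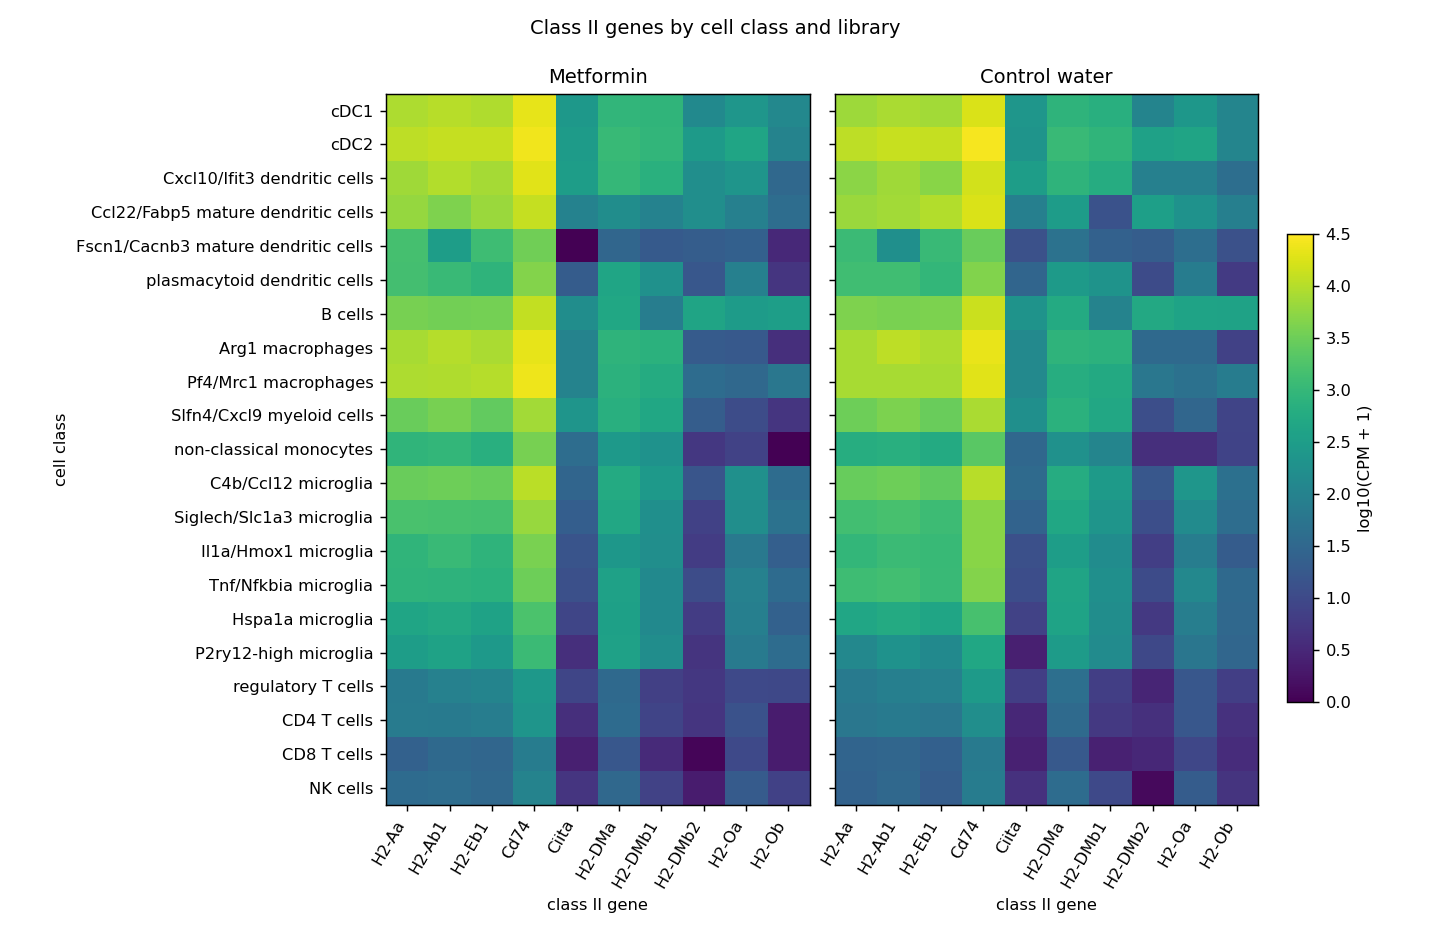
Level of the 10 class II genes (columns) in cell classes (lines of the grid) of the metformin library (left) and the control water library (right), as log10(CPM + 1) with 1 library each. Read down a column: H2-Aa, H2-Ab1, H2-Eb1 and Cd74 are brightest in conventional dendritic cells and macrophages, H2-DMb2 and H2-Ob in B cells, and the genes are dim in T cells and NK cells; classes under 50 cells in a library are drawn too.

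Each core gene showed this order by itself. H2-Aa had 9414 CPM in metformin and 8995 CPM in control water in conventional dendritic cells, 8221 and 8212 CPM in macrophages, 3787 and 4281 CPM in B cells, 1398 and 1130 CPM in microglia and 44.1 and 39.99 CPM in T cells. H2-Ab1, its partner chain, had 11139 and 10884 CPM in conventional dendritic cells, 9981 and 10699 CPM in macrophages, 3476 and 3915 CPM in B cells and 1496 and 1284 CPM in microglia. RNA of the I-E β chain gene H2-Eb1 was present in the usual presenting cells although its protein has no α partner in this strain: it had 10268 and 10034 CPM in conventional dendritic cells and 8737 and 8713 CPM in macrophages. Cd74 had 22519 and 22401 CPM in conventional dendritic cells, 22119 and 21823 CPM in macrophages, 12440 and 13865 CPM in B cells, 5176 and 4161 CPM in microglia and 132 and 113 CPM in T cells. The balance of chain to invariant chain differed between classes by more than counting error. H2-Aa made up 29.5% (29.1 to 29.8) of H2-Aa plus Cd74 UMIs in metformin and 28.6% (28.2 to 29.1) in control water in conventional dendritic cells, against 21.3% (20.9 to 21.6) and 21.4% (21.02 to 21.7) in microglia, with B cells between them at 23.3% and 23.6%.

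T cells of the mouse make next to no class II of their own, so their UMIs are used as the background here. After each cell was thinned to 3202 UMIs, 38.2% of metformin T cells and 33.6% of control water T cells held a core UMI, and 113 and 197 shallower cells were left out. Unthinned, 68.8% and 61.6% did, at medians of 8141.5 and 7518 UMIs. The UMIs were uneven: the richest 5% of T cells held 57.4% of the class's core UMIs in metformin and 56.5% in control water. Regulatory T cells had 516 CPM in metformin and 532 CPM in control water, of which 1 cell held 23.9% and 20.3%, and 40.5% and 49.3% of them held a core UMI at 2146 UMIs, against 28.1% and 27.5% of all T cells at that depth. The marker genes of macrophages summed to 588 CPM in metformin T cells and 370 CPM in control water T cells, and their part in the T cell values was not tested. γδ T cells, with 41 metformin and 45 control water cells, had 511 and 202 CPM of the core sum, including 23 and 5 UMIs of H2-Aa, and 1 cell held 23.3% and 16.9% of the core UMIs.

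Every conventional dendritic cell that reached 6188 UMIs held a core UMI, 104 of 104 in metformin and 73 of 73 in control water, while 54.4% and 51.2% of T cells did at that depth. Microglia stood between, with 81.7% (79.1 to 84.1) in metformin and 71.9% (69.3 to 74.4) in control water at 3418 UMIs, against 38.5% and 37.2% of T cells. The cells of a class were far from alike in the brain-resident cells and close to alike in B cells. The median microglial cell held 9.09 core UMIs per 10000 in metformin and 5.37 in control water, with upper quartiles of 78.9 and 62.2. The median B cell held 261 and 277, with quartiles from 204 to 315 and from 234 to 320.

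**Figure D2:**
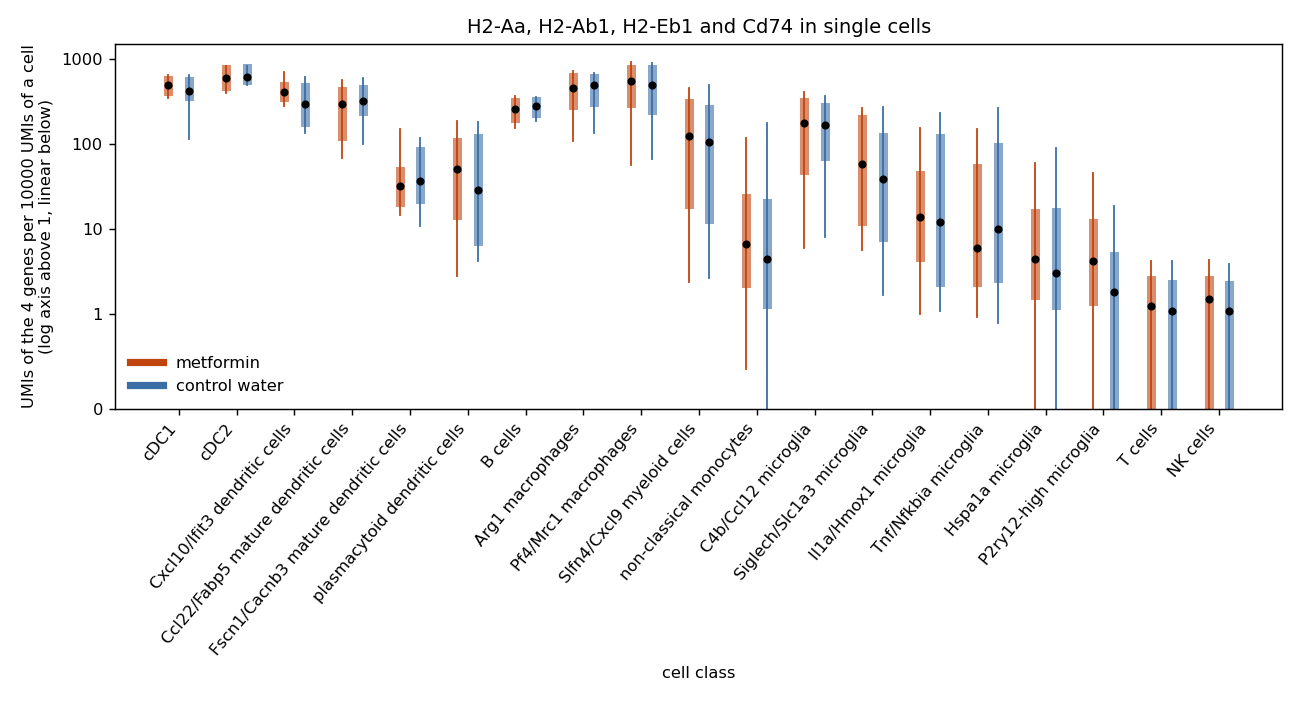
UMIs of H2-Aa, H2-Ab1, H2-Eb1 and Cd74 per 10000 UMIs of a cell, by class, metformin left of control water; the vertical axis is logarithmic above 1 and linear below it, black points are medians over cells, thick bars run from the 25th to the 75th percentile and lines from the 10th to the 90th. B cells are narrow around 261 and 277, microglial states spread widely, and the T cell medians are 1.26 and 1.10; cells of 1 library are not replicates.

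Among conventional dendritic cells, cDC2 cells (which favour CD4 T cells) had the highest core sum, 62662 CPM in metformin and 65074 CPM in control water. The cDC1 cells, which specialise in cross-presentation, had 49997 and 40555 CPM, and a dendritic cluster led by Cxcl10 and Ifit3 had 44722 and 33269 CPM. These clusters hold 44 and 42, 50 and 22, and 22 and 17 cells, metformin first, so they were not counted under the size rule. In the control water cDC1 cells 1 cell held 13.5% of the core UMIs. Of the 5 broad classes, conventional dendritic cells had the most Ciita: it had 274 CPM (251 to 299) in metformin and 231 CPM (206 to 260) in control water over all conventional dendritic cells, 160 and 201 CPM in B cells, 103 and 131 CPM in macrophages, 15.2 and 14.2 CPM in microglia and 2.75 and 1.97 CPM in T cells.

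Mature dendritic cells, named from Ccr7, Fscn1 and Ccl22, carried less of the core genes than conventional dendritic cells did. The larger cluster, led by Fscn1 and Cacnb3 with 52 metformin and 31 control water cells, had 6361 CPM of the core sum in metformin and 5479 CPM in control water. Ciita had 0 UMIs there in metformin, with an interval up to 8.39 CPM, and 3 UMIs in control water (12.2 CPM). H2-Ab1 stood further below its level in conventional dendritic cells than the other chain genes did. It had 318 and 175 CPM in that cluster against 11139 and 10884 CPM in conventional dendritic cells, whereas H2-Aa had 1491 and 1177 CPM against 9414 and 8995 CPM. The smaller cluster, led by Ccl22 and Fabp5 with 14 and 12 cells, had 29863 CPM in metformin and 41362 CPM in control water. Plasmacytoid dendritic cells, with 36 and 18 cells, had 8011 and 8034 CPM.

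The 2 macrophage groups had core sums of the same order. Macrophages led by Arg1, an enzyme of arginine breakdown common in tumour macrophages, had 48349 CPM in metformin and 50428 CPM in control water. Macrophages led by Pf4 and Mrc1, markers of macrophages at the brain's borders, had 52533 and 44524 CPM. A myeloid class led by Slfn4 and Cxcl9, an interferon-induced chemokine, had 16795 and 18972 CPM of the core sum but 224 and 175 CPM of Ciita, both higher than the 103 and 131 CPM of macrophages. Ciita UMIs were 1.32% (1.09 to 1.58) and 0.912% (0.786 to 1.05) of Ciita plus core UMIs in that class, against 0.209% (0.192 to 0.228) and 0.265% (0.242 to 0.289) in macrophages.

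The peptide exchange genes split by lineage. H2-DMa followed the chains, with 981 CPM in metformin and 1002 CPM in control water in conventional dendritic cells, 842 and 807 CPM in macrophages, 474 and 563 CPM in B cells and 433 and 426 CPM in microglia. H2-DMb1 had 871 and 786 CPM in conventional dendritic cells and 721 and 733 CPM in macrophages, but 80.2 and 103 CPM in B cells. H2-DMb2 ran the other way. It had 418 CPM (388 to 450) in metformin B cells and 521 CPM (500 to 542) in control water B cells, 190 and 244 CPM in conventional dendritic cells and 22.1 and 38.0 CPM in macrophages. H2-DMb2 therefore made up 83.9% (81.3 to 86.3) of H2-DMb1 plus H2-DMb2 UMIs in metformin B cells and 83.5% (82.05 to 84.8) in control water B cells. The share was 24.1% and 29.9% in cDC2 cells, 13.4% and 13.04% in cDC1 cells, 2.98% and 4.92% in macrophages and 4.44% and 4.6% in microglia. The mature dendritic cells, with few UMIs of both genes, had 60% (45.2 to 73.6) and 82.5% (67.2 to 92.7). These shares rest on few cells, as 10.6% of metformin and 23.3% of control water mature dendritic cells held an H2-DMb2 UMI. Of their H2-DMb2 UMIs, 21 of 30 in metformin and 28 of 33 in control water lay in the Ccl22 and Fabp5 cluster. In that cluster 1 cell held 57.1% of the H2-DMb2 UMIs in each library. B cell markers summed to 149 CPM in metformin and 343.6 CPM in control water in conventional dendritic cells, and their part in the H2-DMb2 values was not tested. The cDC2 and cDC1 cells differed beyond counting error in both libraries, with cDC2 cells the nearer to B cells. Their promoters, printed above, both hold the X and Y letters 17 bases apart.

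Of the 5 broad classes, B cells had the most of the DO genes, which brake DM. Conventional dendritic cells came next, close to B cells for H2-Oa in metformin, and microglia held DO transcripts too. Among dendritic cells, the cDC2 cells had 434 CPM (383 to 489) of H2-Oa in metformin and 420 CPM in control water. In metformin this was above B cells beyond counting error, while in control water the intervals of cDC2 and B cells overlapped. The clusters under the cDC2 name differed in metformin, at 497 CPM (435 to 566) in 31 cells and 241 CPM (170 to 333) in 13 cells. In control water they had 444 and 390 CPM. The cDC1 cells had 228 and 237 CPM. H2-Oa had 299 CPM in metformin and 410 CPM in control water in B cells, 294 and 314 CPM in conventional dendritic cells, 117 (110 to 125) and 119 CPM (112 to 126) in microglia, 20.0 and 35.3 CPM in macrophages and 11.1 and 13.02 CPM in T cells. H2-Ob had 334 and 389 CPM in B cells, 104 and 102 CPM in conventional dendritic cells, 34.3 and 33.8 CPM in microglia, 12.8 and 18.1 CPM in macrophages and 4.93 and 4.91 CPM in T cells. Microglia lay above macrophages as a whole in both DO genes while they lay below them in all 4 core genes. The macrophage groups differed in H2-Ob, with 60.8 and 76.7 CPM in Pf4 and Mrc1 macrophages, above microglia, and 3.09 and 6.37 CPM in Arg1 macrophages. In H2-Oa both groups lay below microglia, at 32.7 and 46.3 CPM and at 17.4 and 33.1 CPM. DO made up 39.4% (37.6 to 41.3) and 40.2% (39.2 to 41.2) of DO plus DM UMIs in B cells, 19.5% (18.6 to 20.5) and 19.6% (18.7 to 20.5) in microglia, 16.3% and 16.98% in conventional dendritic cells and 2.03% (1.73 to 2.36) and 3.27% (2.84 to 3.75) in macrophages, metformin first. Within DO, H2-Ob took 52.8% and 48.6% of UMIs in B cells, 22.6% and 22.2% in microglia, and 65.0% and 62.3% in the Pf4 and Mrc1 macrophages, where H2-Ob had 52 and 48 UMIs and 1 cell held 19.2% and 20.8% of them.

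**Figure D3:**
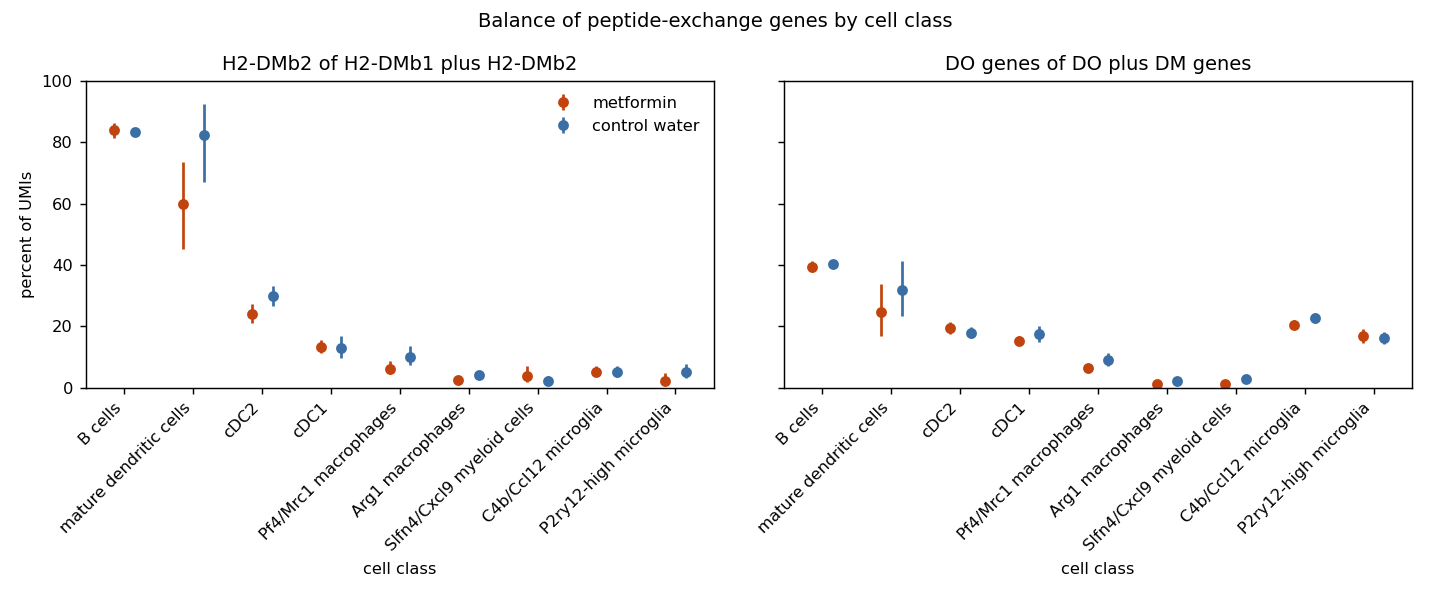
Share of H2-DMb2 among H2-DMb1 plus H2-DMb2 UMIs (left) and of H2-Oa plus H2-Ob among all DO and DM UMIs (right), in percent by cell class, metformin left of control water, with 95% binomial counting intervals. B cells stand highest in both panels, at 83.9% and 83.5% and at 39.4% and 40.2%; the C4b and Ccl12 and the P2ry12-high microglia are low in the left panel and above both macrophage groups in the right one.

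Across 17 classes in 2 libraries, 34 points that share libraries and depth, the log2(CPM + 1) of each core gene followed the mean of the other core genes with a Pearson r of 0.995 to 0.998. The r was 0.946 for H2-DMa, 0.939 for H2-DMb1, 0.920 for Ciita, 0.829 for H2-DMb2, 0.631 for H2-Oa and 0.555 for H2-Ob. Over these classes the DO genes had the lowest r. No dendritic class was among the 17, since each had under 50 cells in a library, so the order holds for the other cells only. Of 5489 other genes, the most alike over the same 34 points were Blvrb (0.940), Apoe, which encodes a lipid carrier (0.921), Rnase6, Dok3, Scpep1, Aldh3b1, BC028528, Gpx1, Pkib and Pirb (0.898).

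The 6 microglial states differed widely in class II. The core sum was highest in the C4b and Ccl12 state, 19897 CPM in metformin and 18787 CPM in control water, near the level of B cells. It was lowest in the P2ry12-high state, 2132 and 931 CPM, where P2ry12, a receptor of resting microglia, had 3112 and 3180 CPM. The states between were led by Siglech and Slc1a3 (11035 and 9222 CPM), Il1a and Hmox1 (6822 and 8203 CPM), Tnf and Nfkbia (5690 and 8314 CPM) and Hspa1a (3011 and 2980 CPM). The range was 9.33-fold in metformin and 20.2-fold in control water, and in the control water library the Il1a and Tnf states did not differ beyond counting error. In the metformin Il1a state 1 cell held 22.03% of the core UMIs. The DM genes moved far less over the same states: H2-DMa spanned 2.44-fold and 2.14-fold, and H2-DMb1 1.91-fold in both libraries. In the P2ry12-high state H2-DMa had 380 and 290 CPM, 15.3-fold and 10.1-fold above T cells, while Ciita, at 5 and 4 UMIs, was 1.11-fold (0.343 to 2.80) and 0.772-fold (0.198 to 2.18) its T cell level. DM thus made up 20.3% and 32.5% of DM plus core UMIs in the P2ry12-high state, against 4.08% and 4.68% in the C4b and Ccl12 state.

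**Figure D4:**
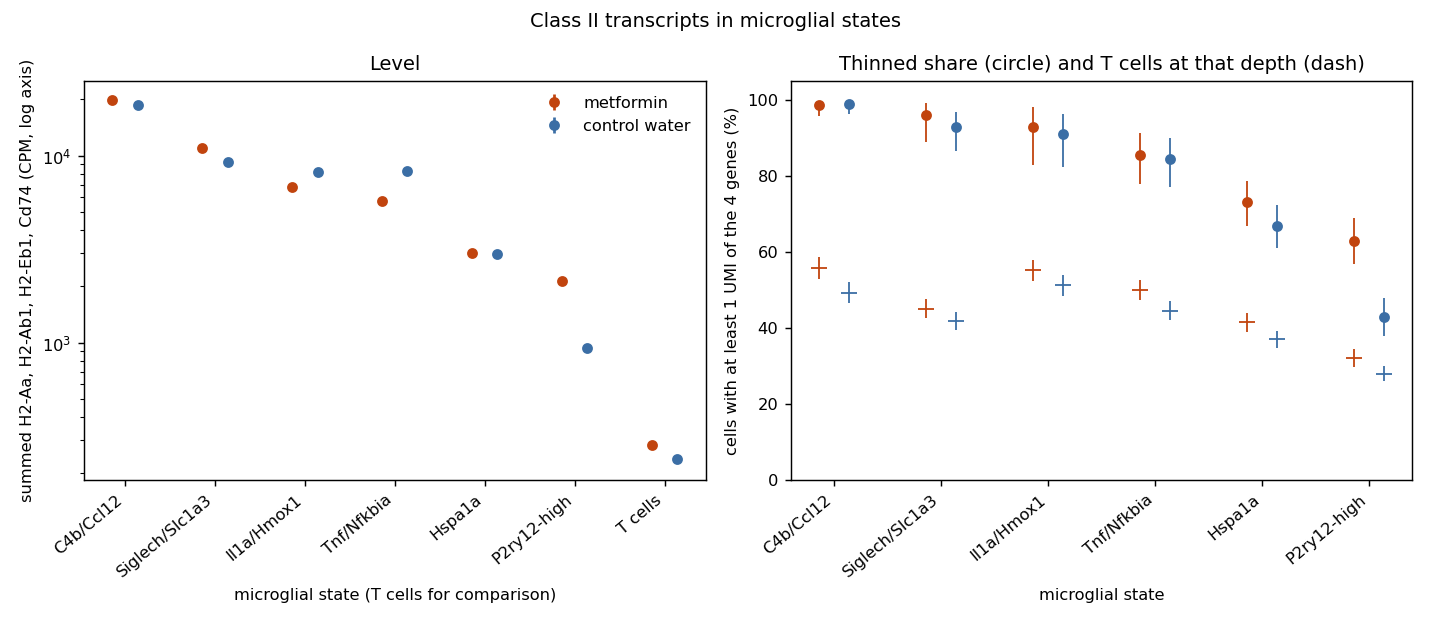
Summed level of H2-Aa, H2-Ab1, H2-Eb1 and Cd74 (left, CPM on a log axis, with T cells for comparison) and share of cells with at least 1 UMI of them after thinning (right, percent, circles; the dashes are T cells thinned to the same depth) by microglial state, metformin left of control water, with 95% counting intervals. The states run from 19897 and 18787 CPM to 2132 and 931 CPM, and the P2ry12-high state has the largest ratio between the libraries of the 6.

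Between metformin and control water, no class II gene passed the size rule in any of the 5 broad classes. In conventional dendritic cells 0 of 10 eligible members passed, where 8.48% of all eligible genes did, and in B cells 0 of 10, where 2.04% did. In macrophages it was 0 of 7 (1.93% of all genes), in microglia 0 of 7 (0.597%) and in T cells 0 of 3 (1.31%). The core ratio was 1.02 (1.01 to 1.03) in conventional dendritic cells (1.23 in cDC1, 1.34 in Cxcl10 and Ifit3 and 0.963 in cDC2 cells, with cDC1 50 of 116 metformin and 22 of 81 control water cells), 0.889 (0.879 to 0.899) in B cells, 0.992 (0.986 to 0.998) in macrophages, 1.23 (1.22 to 1.24) in microglia and 1.19 (1.14 to 1.24) in T cells. In B cells all 10 members had ratios below 1, from 0.728 for H2-Oa to 0.897 for Cd74. In macrophages Ciita had a ratio of 0.785 (0.692 to 0.889), and H2-DMb2 (0.583) and H2-Oa (0.565) lay under 50 CPM and were not eligible. The DO genes summed had 32.8 CPM in metformin and 53.4 CPM in control water there, a ratio of 0.614 (0.497 to 0.758). That sum lay past the limits of the rule, but it is no single gene and was not counted. The medians of the eligible members' log2 ratios were 0.03, -0.23, 0.00, 0.22 and 0.22 in these 5 classes in the same order, where the medians of all eligible genes were 0.04, 0.02, -0.00, -0.04 and -0.03.

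**Figure D5:**
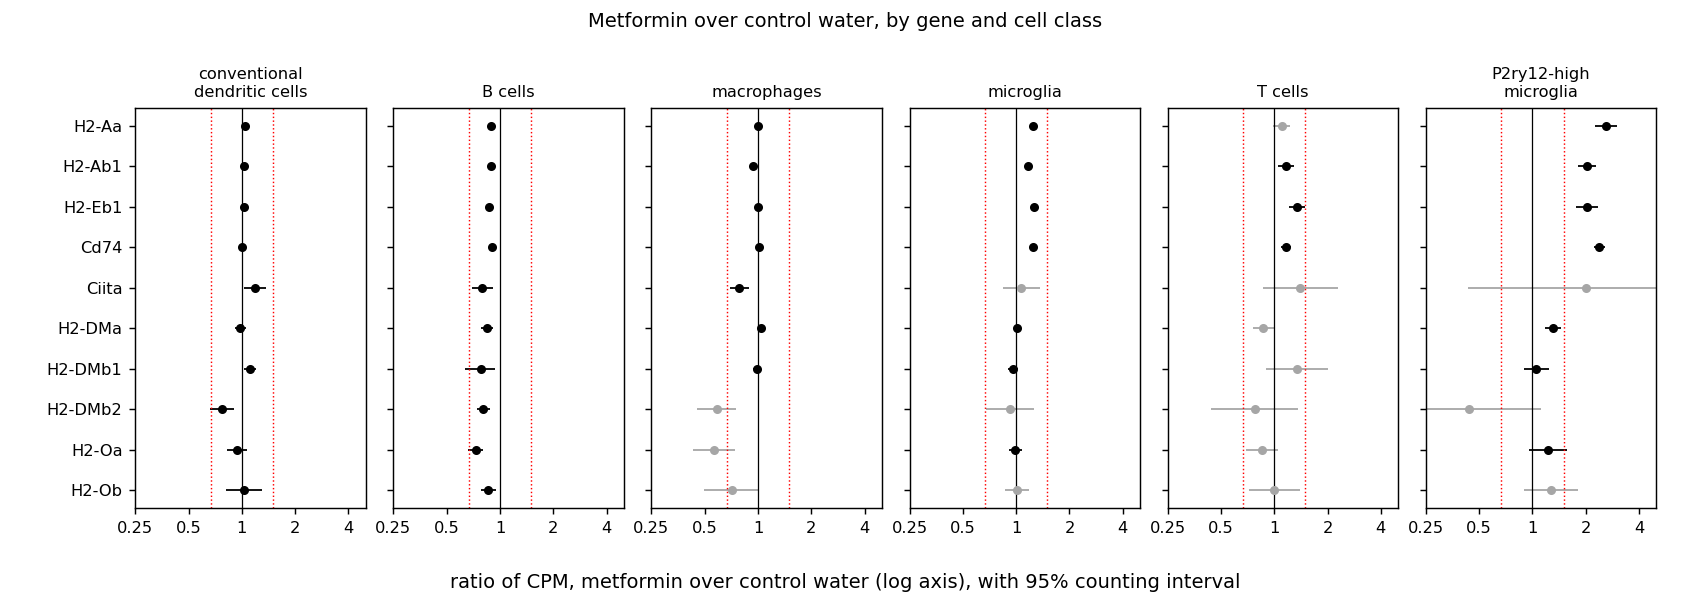
Ratio of CPM, metformin over control water, on a log axis, for each class II gene in 6 cell classes, with 95% counting intervals; grey points lie under 50 CPM or 20 UMIs in both libraries and the dotted red lines mark 1.5-fold. Black points stay within the dotted lines except for H2-Aa, H2-Ab1, H2-Eb1 and Cd74 in P2ry12-high microglia, at 2.61, 2.04, 2.03 and 2.38.

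In the P2ry12-high microglia the 4 core genes rose past the size rule, while the 3 eligible DM and DO genes did not. H2-Aa had 321 CPM (294 to 350) in metformin and 123 CPM (110 to 137) in control water, a ratio of 2.61 (2.27 to 3.01). H2-Ab1 had 391 and 192 CPM (ratio 2.04), H2-Eb1 271 and 133 CPM (2.03) and Cd74 1149 and 483 CPM (2.38), metformin first. This is 4 of 7 eligible members, where 0.952% of all eligible genes passed in either direction and 0.577% upward. H2-DMa had a ratio of 1.31 (1.18 to 1.46), H2-DMb1 1.05 (0.897 to 1.23) and H2-Oa 1.23 (0.959 to 1.58). The difference showed in the typical cell as well: the median was 4.19 core UMIs per 10000 in metformin and 1.83 in control water, and 62.9% (56.7 to 68.8) and 42.8% (37.9 to 47.7) of cells held a core UMI at 2266 UMIs, against 32.0% and 27.9% of T cells. No single cell held more than 11.6% of the UMIs of a core gene in either library.

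The P2ry12-high ratio depended on where the state was drawn. In this alternative and the next, the second clustering of myeloid cells was left out. Each cluster of all cells took the class most common in it. With class II genes allowed into the clustering, which sorts cells partly by class II itself, the core ratio was 1.18. None of the 4 core genes reached 1.5-fold (ratios of 1.07 to 1.23). The state so drawn held 5268 Cd74 UMIs in metformin and 6407 in control water, against 1882 and 1274 before. The part of the coarser clusters was not tested apart from that of the class II genes. At a clustering resolution of 1.5 the core ratio was 1.73, and H2-Ab1, at 1.36, no longer reached 1.5-fold. Median depth was close, 5907.5 UMIs in metformin and 5991 UMIs in control water. Microglial markers, with 12 of 12 detected, summed to 33198 and 35078 CPM. The markers of conventional dendritic cells summed to 13.4 and 15.2 CPM, with 6 of 8 genes detected in each library and Dpp4 at 0 in both. Those of B cells summed to 463 and 517 CPM, with 10 and 13 of 13 detected and Pax5 at 0 in metformin, and those of border macrophages to 10.4 and 13.3 CPM, with 3 and 6 of 9 detected and Cd163 and Lyve1 at 0 in both. Monocyte markers summed to 39.7 and 30.3 CPM, with 6 of 8 detected in each, and their part in the core ratio was not tested. Sums for markers of activated microglia, macrophages, T cells and mature dendritic cells are not given for this state. The part of such cells in the core ratio was not tested either. The interferon pathway gene Irf1 had a ratio of 1.06 (0.813 to 1.37), an interval that includes 1. The class I genes H2-K1 (ratio 1.26) and H2-D1 (1.31) and their partner B2m (1.14) were under the size rule.

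In the Tnf and Nfkbia state the libraries stood the other way round. H2-Ab1 fell to 819 CPM in metformin, against 1364 CPM in control water (ratio 0.601, 0.556 to 0.648), and H2-Eb1 to 741 CPM, against 1134 CPM (0.653, 0.602 to 0.709), which is 2 of 7 eligible members where 3.7% of all eligible genes passed and 1.99% downward. One cell held 12.1% of the H2-Ab1 UMIs in metformin and 6.51% in control water. H2-Aa (0.681) and Cd74 (0.718) were just inside the 1.5-fold limit. With class II genes allowed into the clustering the core ratio was 0.963 in place of 0.684, that of H2-Ab1 was 0.821 and that of H2-Eb1 was 1.01. At resolution 1.5 H2-Eb1, at 0.692, did not reach 1.5-fold. Both alternatives left out the second clustering of myeloid cells, as above, and its part was not tested. The markers of conventional dendritic cells summed to 60.6 CPM in metformin and 31.8 CPM in control water there (7 and 6 of 8 detected, Kmo at 0 in both), and their part was not tested. In the C4b and Ccl12 state, which holds 53524 of 81247 microglial core UMIs in metformin and 42838 of 79134 in control water, the core ratio was 1.06 (1.05 to 1.07) and 0 members passed (2.55% of all genes did). Over all microglia, border macrophage markers summed to 31.6 and 15.95 CPM and activated microglia markers to 17414 and 13604 CPM, and their part in the core ratio of 1.23 was not tested. The mix of states differed between the libraries. Of all microglial UMIs, the C4b and Ccl12 state held 2690050 of 8669744 in metformin and 2280164 of 10406847 in control water. The P2ry12-high state held 1637434 and 2635977 of them. The part of this mix in the ratio of 1.23 was not tested either.

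A T cell cluster led by Tcf7 and Trat1 had 466 CPM of the core sum in metformin and 145 CPM in control water, and the 4 core genes passed the rule there, where 3.56% of all eligible genes did and 1.69% upward. One metformin cell held 65.7% of those UMIs. Among T cells led by Klra1 and Klra6 Cd74 passed as 1 of 1 eligible member (1.96% of all genes did, 1.15% upward), with 62.8 CPM in metformin and 38.6 CPM in control water. Of the unnamed clusters, that led by Cst7 and Cd63 was shallow, with medians of 2471 UMIs per cell in metformin and 1816.5 in control water. It had H2-Aa (1.66) and H2-Eb1 (1.66) past the rule, where 18.2% of all genes passed and 6.35% upward. The cycling lymphocytes, also unnamed, had Cd74 (0.595) and H2-DMa (0.436) past it, where 5.68% did and 2.72% downward. In the cycling cluster 1 cell held 59.7% of the Cd74 UMIs in metformin and 31.97% in control water, and the median cell had 1.05 and 1.10 core UMIs per 10000. In the remaining classes 0 members passed: Arg1 macrophages (3.08% of all genes did), Pf4 and Mrc1 macrophages (9.17%), the Slfn4 and Cxcl9 class (8.9%), Hspa1a (1.03%), Siglech and Slc1a3 (5.02%) and Il1a and Hmox1 microglia (7.8%), regulatory (1.86%), CD4 (2.49%), CD8 (1.03%) and naive-type T cells (3.89%, with 0 members eligible) and NK cells (1.25%). Mature dendritic cells had 1188 CPM of H2-Ab1 in metformin and 1983 CPM in control water (ratio 0.599), with 66 and 43 cells and 18.7% and 24.6% of the UMIs in 1 cell. The clusters of this class went opposite ways for H2-Ab1, with a ratio of 1.82 (1.28 to 2.62) in the Fscn1 and Cacnb3 cells and 0.572 (0.508 to 0.644) in the Ccl22 and Fabp5 cells, which were 14 of 66 metformin cells and 12 of 43 control water cells.

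Where the class II transcripts of a library lay shifted with the cell mix. B cells were 249 metformin cells and 658 control water cells, and they held 7.41% of the core UMIs in metformin and 23.5% in control water. Macrophages held 45.8% and 36.7%, conventional dendritic cells 18.7% and 12.9%, and microglia 15.001% and 15.6%. B cells also held 51.4% and 76.8% of H2-DMb2 UMIs, 43.6% and 71.0% of H2-Ob UMIs and 15.2% and 41.7% of Ciita UMIs. T cells held 0.815% and 0.764% of the core UMIs. The sort and the single library per group cannot be told apart from the treatment in these shares.

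Related genes were counted from 8 lists. The regulators of class II, Rfx5, Creb1 and their partners (7 genes, at most 2 of them eligible in a class) and the interferon and lineage factors such as Irf8 and Spi1 (12 genes, 8 to 10 eligible), had 0 members past the size rule in each of the 5 broad classes, where 0.597% to 8.48% of all genes passed. Of the endosomal processing genes, 7 in the files, 4 of 6 eligible fell in conventional dendritic cells: the proteases Ctsd (ratio 0.130), Ctsl (0.289), Ctsb (0.599) and Lgmn (0.369), where 4.9% of all genes passed downward. A single control water cell held 51.8% of the Ctsd, 51.4% of the Ctsl, 26.8% of the Ctsb and 38.0% of the Lgmn UMIs of that class, and microglial markers summed to 599 CPM in metformin and 1345 CPM in control water there. Of 7 costimulatory partners, Cd86, a ligand of CD28, rose in B cells, 139 CPM in metformin against 91.96 CPM in control water (ratio 1.51, 1.28 to 1.77), as 1 of 4 eligible where 1.06% of all genes passed upward. On the receiving side, Cd4 fell in T cells to 103 CPM in metformin, against 171 CPM in control water (0.603, 0.567 to 0.641), as 1 of 3 eligible genes of the list where 0.77% of all genes passed downward. The CD4 T cell cluster was 219 of 1710 metformin T cells and 408 of 1975 control water T cells, and its part in the Cd4 ratio was not tested. Lag3, a class II receptor, rose in macrophages to 60.8 CPM in metformin, against 31.1 CPM in control water (1.96, 1.58 to 2.44), as the 1 eligible gene of that list where 0.981% of all genes passed upward. Lag3 was also a leading gene of the C4b and Ccl12 microglia. The part of such microglia, or of T cells, in the macrophage values of Lag3 was not tested. The class I genes and the genes of class II turnover had 0 members past the rule in these classes.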

How the data were processed

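Single-cell 3′ libraries of sorted cells, 1 for metformin and 1 for control water, were deposited as UMI counts per gene and barcode, raw whole numbers for 31053 genes. Cell Ranger and Seurat were used with build mm10, per the submitters' processing notes, and the matrix format is of software version 3.0.0, per the file headers. The sources used here do not state intron and strand settings or the annotation. Barcodes (5473 metformin, 6174 control water) with under 300 genes or over 10% mitochondrial UMIs were removed, then doublets marked by Scrublet in scanpy 1.11.5 (0.803% and 1.14% of cells). Counts were scaled to 10000 per cell, and 2000 variable genes without class II genes, 30 principal components and 15 neighbours were used. Leiden clustering as run by igraph at resolution 1.0 gave the clusters, with dendritic and myeloid cells clustered again. Scripts ran in python 3.11.15 with numpy 2.4.6, scipy 1.17.1 and biopython 1.88. Ratios and intervals were tried on simulated Poisson counts. These hold counting error alone, as the intervals assume, so they cannot show how the intervals fare with uneven cells.

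UMIs were summed per class and library as CPM with exact Poisson intervals, ratios carry exact conditional intervals and shares Clopper-Pearson intervals, all at 95%. PCR was corrected by molecular identifiers, and cells were not replicates. The precision follows depth: Ciita in conventional dendritic cells rests on 520 and 289 UMIs, Cd74 on 42716 and 27973. The 10 members were always named. From the other lists counts were given, with up to 4 genes past the size rule, and the 10 genes most alike by correlation. Partner genes on the opposite strand, the T cell cluster led by Tcf7 and Irf1 in P2ry12-high microglia were chosen with their values already known. The members and lists were chosen with earlier results of these data known. Promoters are from RefSeq and positions from GENCODE. Column values of other samples numbered 0. Alternatives covered cell filters, mixed cells, resolution, variable genes, scaling, thinning and the richest cells.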

Additional observations from a re-analysis of the deposited data

Results flagged for a closer look

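The core sum of H2-Aa, H2-Ab1, H2-Eb1 and Cd74 differed in direction between classes under the same contrast of metformin over control water. The ratio was 0.889 in B cells, 0.992 in macrophages and 0.684 in the Tnf and Nfkbia microglia, below 1. It was 1.23 in microglia as a whole, 1.19 in T cells and 2.29 in P2ry12-high microglia, above 1. Of the 7 classes compared here, which are the 5 broad classes and these 2 microglial states, each is named whose counting interval leaves out 1 and which has another on the other side of 1 at least 1.5-fold away. The C4b and Ccl12 state, at 1.06, was not among the 7. The 2 states were taken because core genes had passed the size rule there, upward in P2ry12-high and downward in Tnf and Nfkbia microglia. That choice fixed in advance that directions would differ. Microglia as a whole hold both states. Among the 5 broad classes alone, no ratios on opposite sides of 1 lay 1.5-fold apart. The macrophage ratio was 1.07 with class II genes allowed into the clustering and at resolution 1.5, so its direction turned. Both settings left out the second clustering of myeloid cells. With 1 library a group, whether the classes differ was not tested.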

How the results depend on the processing

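The core ratios of metformin over control water kept their side of 1 in B cells, microglia, T cells and both microglial states tried under every alternative, and fell on both sides of 1 in conventional dendritic cells and macrophages, and the order of the 5 broad classes by core level held in 20 of 20 pairs except with class II genes among the variable genes (18). Of 70 single-gene ratios, 62 to 70 stayed on their side of 1 (61 of 64 without the richest 5% of cells) and up to 18 moved beyond their interval in a setting. The furthest moves were 3.57-fold without cells of mixed markers (H2-DMb2 in T cells, from few UMIs), 2.24-fold with class II genes allowed and 1.76-fold as a mean over cells. Core ratios that moved beyond their counting interval were as follows. With at least 1000 UMIs and at most 5% mitochondrial UMIs a cell they were 0.997 in conventional dendritic cells, 0.777 in B cells, 1.01 in T cells, 2.45 in P2ry12-high and 0.749 in Tnf and Nfkbia microglia. Without cells of mixed markers they were 1.01 in conventional dendritic cells, 0.903 in B cells, 0.982 in macrophages and 1.27 in T cells. With class II genes allowed they were 1.07 in macrophages, 1.28 in microglia, 1.11 in T cells, 1.18 in P2ry12-high and 0.963 in Tnf and Nfkbia microglia, and H2-Eb1 in the last was 1.01 in place of 0.653. At resolution 1.5 they were 1.01 in conventional dendritic cells, 1.07 in macrophages, 1.27 in microglia, 1.73 in P2ry12-high and 0.648 in Tnf and Nfkbia microglia. This setting and the one before left out the second clustering of dendritic and myeloid cells, and each cluster took its most common class. As a mean over cells they were 0.997 in conventional dendritic cells, 0.939 in B cells, 1.22 in microglia, 1.41 in T cells, 2.12 in P2ry12-high and 0.606 in Tnf and Nfkbia microglia. With median-of-ratios scaling they were 0.992 in conventional dendritic cells, 0.877 in B cells and 1.27 in microglia. Without the richest 5% of cells, a choice made after seeing the data, they were 1.06 in conventional dendritic cells, 0.980 in macrophages, 1.28 in microglia, 2.60 in P2ry12-high and 0.523 in Tnf and Nfkbia microglia. The causes were not tested. Counts of members past the size rule changed to 0 at 2-fold in Tnf and Nfkbia microglia and to 2 with no minimum level in macrophages. Shares of cells with a core UMI depend on depth: without thinning they were 80.9% and 66.9% in P2ry12-high microglia, 68.8% and 61.6% in T cells, 100% and 100% in macrophages and 89.3% and 81.8% in microglia, metformin first. At 2000 UMIs they were 28.4% and 25.7% in T cells and 72.6% and 62.5% in microglia, and with at least 2 UMIs 37.8% and 21.3% in P2ry12-high microglia, 10.5% and 8.16% in T cells and 65.5% and 53.5% in microglia. No paired analysis was possible because each group is 1 library.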
